A study of Mus musculus with 2 samples.

Results

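Coding-exon peaks are regions of open chromatin whose point of highest signal fell inside protein-coding sequence and away from any annotated gene start. They were taken from 2 peak lists of mouse spleen, each made from 1 library. A peak was counted when it lay on an autosome, when its nearest edge was over 3 kb from every transcription start site (TSS) of GENCODE vM21, and when its summit lay in the coding part of an exon of a protein-coding transcript. In the library prepared without density gradient centrifugation 137 peaks met these conditions, of 24863 autosomal peaks and 25343 peaks in all. In the library from the 50 µL reaction system 417 did, of 87358 autosomal peaks and 89382 peaks in all.

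Both libraries were made with scFFPE-ATAC, a single-cell assay for formalin-fixed, paraffin-embedded (FFPE) tissue in which Tn5 transposase inserts adapters into accessible DNA. The library without gradient came from nuclei that had not been cleaned by density gradient centrifugation, a step that removes cell debris. The 50 µL library is named by its title for a Tn5 reaction system of 50 µL. The protocol text, identical for both libraries, describes a larger reaction volume. The paper's supplement reports a mouse FFPE spleen experiment in a 50 µL system. The volume of the 50 µL library thus rests on its title and that report. Whether its nuclei passed through a gradient is not given in the sources used here. Both used spleen of mice that the methods describe as young adult C57BL/6 J of either sex, and the number of animals behind each library is not given in the sources used here. Neither group carries a genetic change or drug treatment, and the standard preparations they would be set against are not analysed here. With 1 library per condition there is no replicate, so no test between the libraries was possible. All intervals below are exact Clopper-Pearson 95% intervals, or exact Poisson 95% intervals for rates per Mb, and cover counting error only.

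Most accessible sites of a mammalian genome are promoters and enhancers, and enhancers lie mainly in introns and between genes. Coding exons are a small part of the genome, rich in GC and nearly free of repeats, and their sequence is held by the protein it encodes. Some also carry binding sites of transcription factors. CTCF, a zinc finger protein that binds a long and well-defined sequence, shapes chromatin loops and marks accessible sites shared by many cell types.

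The sequences below show what these peaks contain, in mm10 (RefSeq GRCm38). The first set gives coding-exon peaks of the library without gradient that matched the CTCF consensus of 12 letters, each as 41 bases read 5′ to 3′ on the strand of the match, with the match in capitals. The match lay in coding sequence in the first 6 and in the intron beside the exon in the last 4.
Pdia4 (chr6:47799214-47799254, plus strand): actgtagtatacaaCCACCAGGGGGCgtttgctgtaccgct
Zscan10 (chr17:23610699-23610739, minus strand): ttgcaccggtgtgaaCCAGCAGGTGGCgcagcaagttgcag
Eri1 (chr8:35469150-35469190, minus strand): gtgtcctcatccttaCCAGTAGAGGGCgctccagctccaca
Mroh6 (chr15:75884283-75884323, minus strand): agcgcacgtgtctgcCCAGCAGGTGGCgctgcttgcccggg
Synpo2l (chr14:20661148-20661188, minus strand): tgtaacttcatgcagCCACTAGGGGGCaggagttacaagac
Lrp1 (chr10:127576478-127576518, plus strand): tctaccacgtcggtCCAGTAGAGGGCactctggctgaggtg
Crtam (chr9:40990047-40990087, plus strand): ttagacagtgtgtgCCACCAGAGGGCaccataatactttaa
Ints9 (chr14:65026331-65026371, plus strand): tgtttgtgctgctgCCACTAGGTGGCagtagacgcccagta
Ern1 (chr11:106418764-106418804, plus strand): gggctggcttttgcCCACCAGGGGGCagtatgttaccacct
Tbx21 (chr11:97101871-97101911, plus strand): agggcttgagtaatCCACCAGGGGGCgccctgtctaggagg

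The second set gives the 200 bases around the summit in 2 peaks of the library without gradient, on the strand of the gene, with coding bases in capitals. They show how a summit falls within an exon of ordinary length, so that the rest of the window is intron.
Pdia4 (chr6:47799222-47799421, minus strand): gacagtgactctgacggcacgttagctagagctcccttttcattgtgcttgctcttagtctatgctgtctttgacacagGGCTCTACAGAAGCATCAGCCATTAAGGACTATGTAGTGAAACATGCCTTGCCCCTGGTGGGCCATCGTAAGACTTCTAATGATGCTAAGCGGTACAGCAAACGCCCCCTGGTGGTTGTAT
Kif13a (chr13:46798330-46798529, minus strand): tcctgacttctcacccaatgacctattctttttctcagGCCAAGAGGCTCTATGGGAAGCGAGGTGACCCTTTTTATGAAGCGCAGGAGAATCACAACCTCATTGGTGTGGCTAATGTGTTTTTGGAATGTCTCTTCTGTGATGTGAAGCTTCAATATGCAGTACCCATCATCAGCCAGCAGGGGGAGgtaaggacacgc

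The third set gives the same window in 2 coding-exon peaks with many CpG pairs, which are in capitals. The Zfp771 window was wholly coding and the Pomc window mostly so.
Zfp771 (chr7:127254179-127254378, plus strand): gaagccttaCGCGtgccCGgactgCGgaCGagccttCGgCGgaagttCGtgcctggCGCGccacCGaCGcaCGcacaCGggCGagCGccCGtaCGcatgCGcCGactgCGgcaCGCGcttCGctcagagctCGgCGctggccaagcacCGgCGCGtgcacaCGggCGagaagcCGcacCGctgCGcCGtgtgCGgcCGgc
Pomc (chr12:3959868-3960067, plus strand): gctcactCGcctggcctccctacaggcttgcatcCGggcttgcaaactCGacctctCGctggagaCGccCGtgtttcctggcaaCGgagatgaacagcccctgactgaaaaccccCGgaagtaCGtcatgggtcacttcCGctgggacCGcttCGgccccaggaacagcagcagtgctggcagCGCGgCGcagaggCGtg

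The deposited summits lay to one side of CTCF matches. In peaks over 3 kb from a TSS and outside coding exons, the midpoint of a CTCF match within 200 bp stood at a median of −60 bp from the summit without gradient (interquartile range −82 to −38, 1600 matches) and −78 bp in the 50 µL list (−106 to −48, 2583 matches). A negative value means a lower genome coordinate than the summit. The match lay below the summit in 96.2% and 92.1% of cases. The side did not depend on the strand of the match. Without gradient the medians were −65 bp for plus-strand and −54 bp for minus-strand matches, and in the 50 µL list they were −86 bp and −73 bp. TSSs, which give a measure without a motif, lay differently on the strands. The nearest protein-coding TSS within 500 bp of a summit lay at a median of −2 bp for plus-strand genes and −126 bp for minus-strand genes without gradient, and at −7 bp and −119 bp in the 50 µL list. Plus-strand TSSs were thus on either side of the summit, with 50.6% and 53.6% below it, and minus-strand TSSs mostly below it, with 85.6% and 76.4%. The coding-exon peaks shared the displacement from CTCF matches. All 21 CTCF matches within 200 bp of their summits without gradient lay below the summit, with a median of −67 bp, and all 25 in the 50 µL list did, with a median of −99 bp. The cause was not tested.

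**Figure D1:**
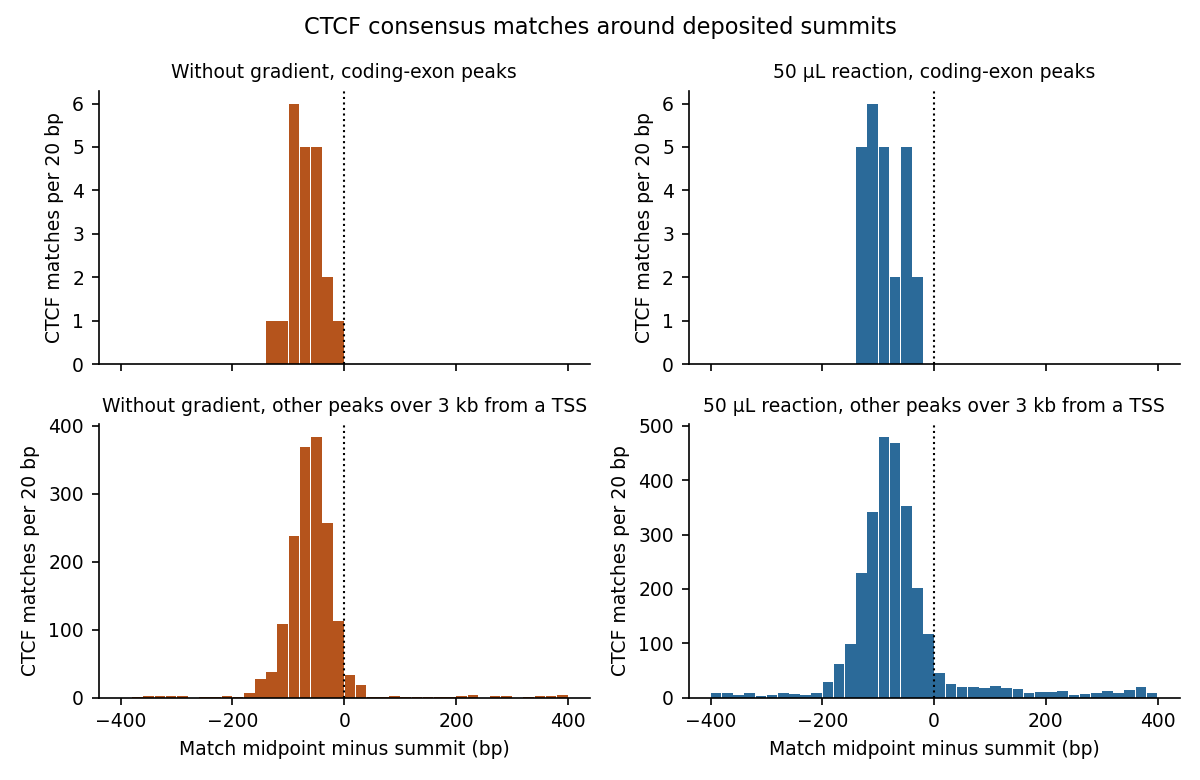
CTCF consensus matches per 20 bp (y axis) by their distance from the deposited summit in bp (x axis), for coding-exon peaks (top) and all other peaks over 3 kb from a TSS (bottom), without gradient (left) and in the 50 µL list (right). The dotted line is the summit, and the matches pile up at lower coordinates, at medians of −67 and −99 bp in coding-exon peaks and −60 and −78 bp in the others.

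This distance matters because it is of the order of an exon. When every peak was moved by its library's median of −60 or −78 bp, a setting chosen after the data were seen, 85 of the 137 coding-exon peaks without gradient (62.0%) and 216 of the 417 in the 50 µL list (51.8%) still had a coding summit over 3 kb from a TSS. As other peaks took their place, the totals were 125 and 420. Here and below, counts of peaks that stayed coding when moved require both a coding summit and a distance over 3 kb from a TSS. In coding segments under 200 bp, 34 of 78 peaks without gradient and 84 of 248 in the 50 µL list stayed coding. In segments of 200 bp or more, 51 of 59 and 132 of 169 stayed. Which single peaks in short exons belong to the class thus changed with a shift of this size, while the totals changed little.

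Coding-exon peaks made up 0.551% of autosomal peaks without gradient (interval 0.463 to 0.651) and 0.477% in the 50 µL list (0.433 to 0.525). Of the peaks over 3 kb from a TSS they were 1.19% (1.00 to 1.41, of 11476) and 0.774% (0.702 to 0.852, of 53860). Coding sequence over 3 kb from a TSS covered 17.3 Mb, or 0.862% of the 2012 Mb of known sequence at that distance. The ratio of peak share to base share was therefore 1.39 without gradient (1.16 to 1.64) and 0.899 in the 50 µL list (0.815 to 0.989). The share of peaks was thus above that of bases without gradient and below it in the 50 µL list, where the call depended on the setting. With moved peaks the ratios were 1.27 and 0.905. With TSSs of protein-coding transcripts only, the 50 µL ratio was 0.967 (0.896 to 1.043), an interval that includes 1. It went above 1 when only peaks of at least 4-fold enrichment were kept (1.14, 0.949 to 1.35) or when the list was reduced to its 24863 most significant peaks (1.07, 0.874 to 1.29), and both of these intervals include 1.

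**Figure D2:**
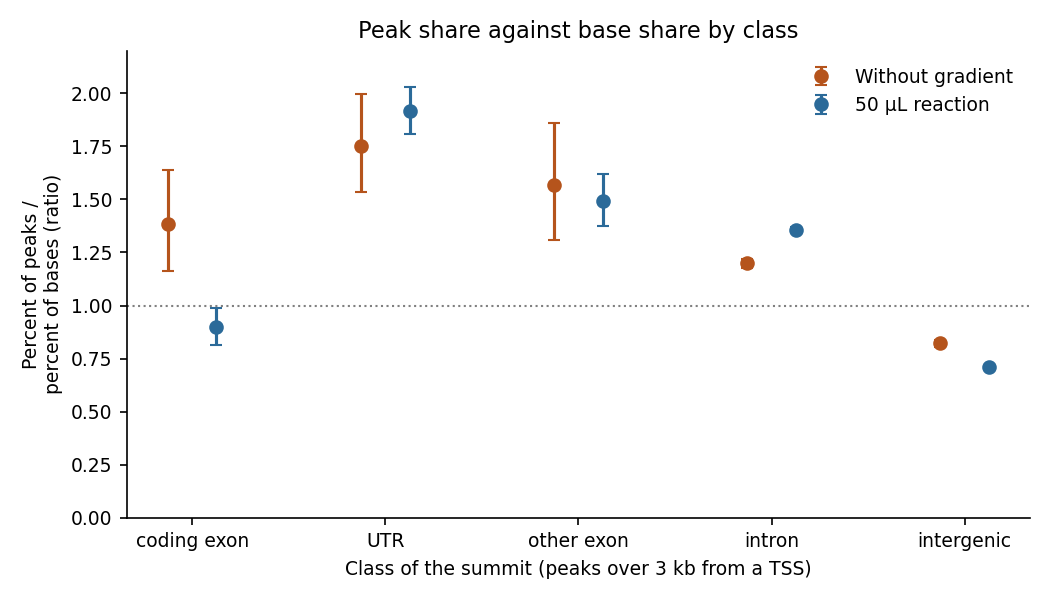
Ratio of the percent of peaks to the percent of bases (y axis) for 5 classes of summit among peaks over 3 kb from a TSS (x axis), with exact 95% intervals, for the library without gradient (left point of each pair) and the 50 µL list (right point). The dotted line marks a ratio of 1. Coding exons stood at 1.39 and 0.899, introns at 1.20 and 1.36.

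The neighbouring classes showed how coding sequence differed from the rest of the gene. Introns had a ratio of 1.20 (1.18 to 1.22) without gradient and 1.36 (1.35 to 1.37) in the 50 µL list. Untranslated regions had 1.75 (1.53 to 2.00) and 1.91 (1.81 to 2.03). Per Mb, coding sequence held 7.90 peaks without gradient, against 6.84 in introns. It held 24.1 peaks per Mb in the 50 µL list, against 36.4 in introns. Without gradient the intron ratio lay inside the coding-exon interval, so the order of coding exons and introns was within counting error there. In the 50 µL list coding exons were below introns. With 1 library each, no test between the preparations could be made.

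Coding-exon peaks resembled other peaks over 3 kb from a TSS in strength. The fold enrichment, the read pileup at the summit over the local background as MACS2 estimated it, had a median of 5.16 without gradient (range 3.29 to 10.0), against 5.14 for the others. The 50 µL median was 3.35 (1.90 to 8.41), against 3.23. The −log10 of the MACS2 q-value had medians of 9.10, against 9.44 for the others, and 12.4, against 11.6. Median widths were 273 bp without gradient, against 271 bp, and 311 bp in the 50 µL list, against 303 bp. Both enrichment and significance depend on the number of reads, which the lists do not give, so they rank peaks within a list and were not compared between the lists as levels.

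**Figure D3:**
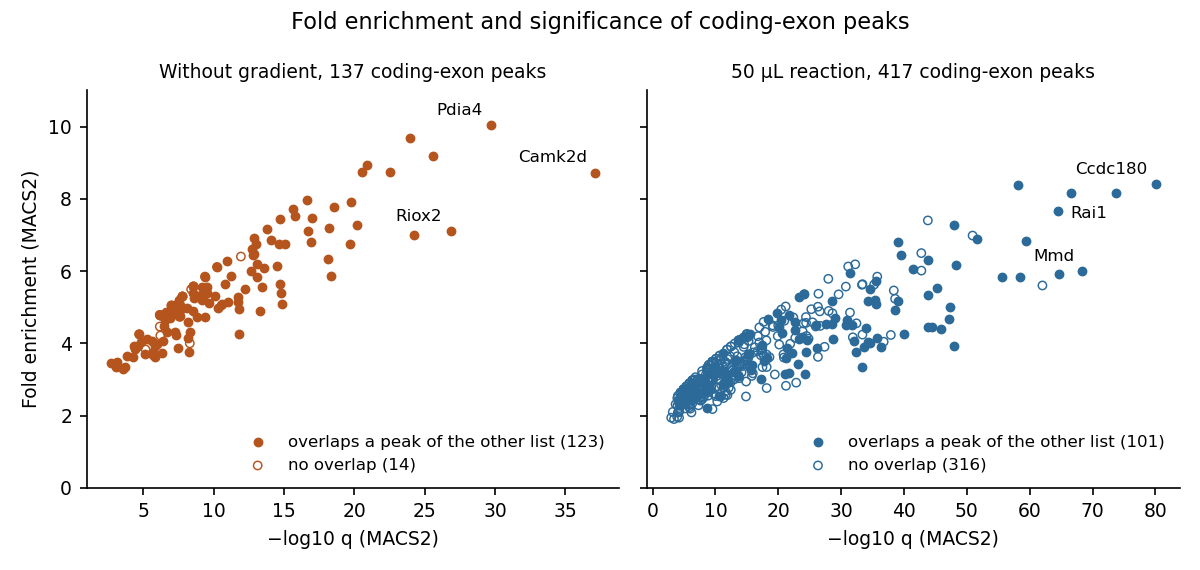
Fold enrichment (y axis) against −log10 q (x axis) for each coding-exon peak, 137 without gradient (left) and 417 in the 50 µL list (right). Filled circles overlap a peak of the other list (123 and 101), open circles do not (14 and 316), and the 3 most significant peaks of each list are named.

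Without gradient, the 10 most significant coding-exon peaks all overlapped a peak of the 50 µL list. The first was in coding exon 6 of 20 of Camk2d, a subunit of calcium/calmodulin-dependent kinase II (chr3:126771645-126771996, 8.72-fold, −log10 q of 37.1). Its 50 µL counterpart had 2.94-fold enrichment and a summit in the intron, and its own summit did not stay coding when moved. Pdia4, a protein disulfide isomerase of the endoplasmic reticulum, followed with 10.0-fold enrichment and a −log10 q of 29.7 in coding exon 8 of 10 (chr6:47799167-47799484). Its 50 µL counterpart had 4.21-fold enrichment and an intronic summit. The moved summit without gradient stayed coding, and the CTCF match printed above lay in coding sequence.

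Riox2, a ribosomal oxygenase, had a peak in its last coding exon, with 7.11-fold enrichment without gradient and 5.19-fold in the 50 µL list, where the summit was in the untranslated region. Its moved summit stayed coding. Zscan10, a zinc finger factor of pluripotent stem cells, had 9.19-fold and 6.73-fold enrichment in its last coding exon (chr17:23610546-23610940). That peak lay 3056 bp from a TSS, just past the limit, and did not stay in the class when moved. Itpr1, an inositol trisphosphate receptor of the endoplasmic reticulum, had its peak at its last coding segment of 84 bp, with 6.99-fold and 4.68-fold enrichment, and the moved summit was not coding.

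Kif13a, a kinesin motor, had a peak in coding exon 20 of 38 with 9.69-fold enrichment without gradient and 7.27-fold in the 50 µL list, and both summits were coding as deposited. When moved, only the summit without gradient stayed coding. Baiap2l2, a protein that bends membranes, had 8.74-fold and 4.11-fold enrichment in a 147-bp exon, with a summit window of 66.5% GC without gradient. Its summits were coding before and after the move in both lists, but the moved summits lay outside this exon, in other annotated coding sequence. Its 50 µL peak spanned 1250 bp, the widest among the coding-exon peaks. Crtam, a receptor of activated T cells and natural killer cells, had 8.93-fold and 4.57-fold enrichment, but its CTCF match lay in the intron and its moved summit was not coding. Ccdc162 (8.75-fold without gradient) and Sgtb, a co-chaperone (7.27-fold), completed this group and stayed coding. Of these 10 peaks, 6 stayed in the class when moved.

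In the 50 µL list, 9 of the 10 most significant coding-exon peaks overlapped a peak of the other list, and 3 kept a coding summit when moved. Those 3 lay in long exons. Rai1, a regulator of transcription, had its peak inside a coding exon of 5511 bp (chr11:60185922-60186418), with 5.05-fold enrichment without gradient and 8.16-fold in the 50 µL list. The second was in Zcchc2, a zinc finger protein, whose peak in an exon of 1482 bp (5.60-fold, −log10 q of 62.0) was the only one of the 10 with no overlap. The third was in Pomc, the precursor of several peptide hormones, with 6.75-fold enrichment without gradient and 6.84-fold in the 50 µL list, in a final coding exon of 573 bp. Its summits lay 112 bp apart in the lists, and both stayed coding.

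The other 7 lay in exons of 61 to 153 bp and did not keep a coding summit when moved. The most significant coding-exon peak of the 50 µL list belonged to them, in Ccdc180 (chr4:45948950-45949653, −log10 q of 80.0, 8.41-fold), whose counterpart without gradient had 4.04-fold enrichment and an intronic summit. The others were in Mmd, Klrb1c, which encodes the natural killer cell receptor NK1.1, Ms4a15, Ints9, a subunit of the Integrator complex, Rabepk, and Phldb2, a protein of the cell cortex. Ints9 and Phldb2 were among the 5 peaks with the highest product of fold enrichments in the lists. Ints9 had 7.91-fold without gradient and 7.66-fold in the 50 µL list. Phldb2 had 6.75-fold and 8.39-fold. In both genes the CTCF match lay in the intron next to the exon. The remaining peaks of this group were in Kif13a, Kif27, another kinesin (7.54-fold and 6.45-fold, coding in both lists before and after the move), and Pomc.

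Exon structure was described by the basic GENCODE transcript with the longest coding sequence at the summit. The peaks fell mostly in internal coding exons, 91 (66.4%, 57.9 to 74.3) without gradient and 304 (72.9%, 68.4 to 77.1) in the 50 µL list. Last coding exons held 41 (29.9%) and 95 (22.8%), and first coding exons, which mostly lie near a TSS and so cannot qualify, 3 and 13. The transcripts had medians of 12 and 14 coding segments, most of which are then internal. Shares by position over all coding sequence are not given here, so no preference can be read from these counts. The median coding length of the exon was 184 bp without gradient and 171 bp in the 50 µL list. A median of 59.0% and 48.7% of the peak's own bases were coding. The peak covered the whole coding exon in 70 cases (51.1%) and 220 (52.8%), and lay wholly inside it in 24 (17.5%) and 77 (18.5%). Summits stood at a median of 77.5% and 73.3% of the way along the gene, and the distance to the nearest TSS had medians of 7523 and 8053 bp. The longest exons with a peak were those of Spen, a transcriptional corepressor (8020 bp, 4.88-fold without gradient), and Ahnak, a very large scaffold protein (16623 bp, 3.66-fold in the 50 µL list).

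The exons with a peak were GC-rich among coding exons. Peaks per Mb of coding sequence were 1.31 (0.159 to 4.74) without gradient in segments under 40% GC, 5.40 (3.76 to 7.51) at 40 to 50%, 8.60 (6.65 to 10.9) at 50 to 60% and 20.5 (14.2 to 28.6) at 60% or more. The same steps held, in the 50 µL list, 10.5 (5.99 to 17), 22.1 (18.6 to 26.0), 24.4 (21.0 to 28.1) and 42.8 (33.4 to 54.0) peaks per Mb. The lowest and highest steps thus differed beyond counting error in both lists. By length there was no such order. Rates without gradient were between 5.88 and 10.3 per Mb with overlapping intervals, and those in the 50 µL list between 16.9 (12.2 to 22.7, at the step that starts from 500 bp) and 29.9 (23.1 to 38.1, under 100 bp).

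**Figure D4:**
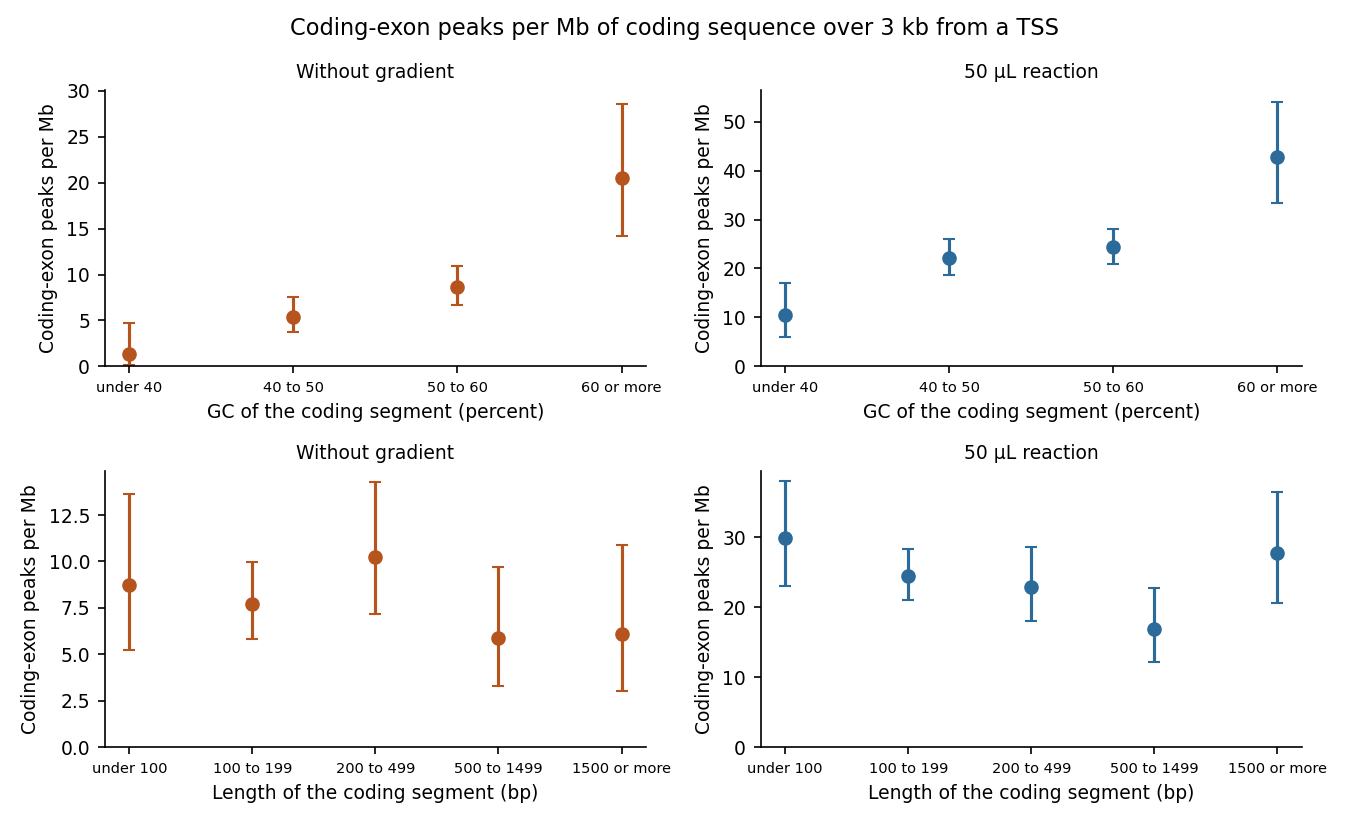
Coding-exon peaks per Mb of coding sequence over 3 kb from a TSS (y axis) by the GC percent (top) and length in bp (bottom) of the coding segment (x axis), with exact Poisson 95% intervals, without gradient (left) and in the 50 µL list (right). Rates were 1.31 and 10.5 per Mb under 40% GC, and 20.5 and 42.8 per Mb at 60% GC or more.

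Around the summit, the 200-bp windows of coding-exon peaks had a median GC content of 54.5% without gradient, against 48.0% for other peaks over 3 kb from a TSS. The 50 µL windows had 51.0%, against 45.0%. Windows at the midpoints of 100399 coding segments over 3 kb from a TSS had a median of 48.5%. Moved windows gave 54.5% and 50.5%. The CpG ratio, the CpG count over that expected from the C and G content, had medians of 0.393 and 0.362, against 0.317 at the midpoints. Repeats covered a mean of 4.63% of the windows without gradient, against 14.3% in the other peaks, and 8.44% in the 50 µL list, against 28.8%.

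A window was called CpG-rich at 50% GC or more with a CpG ratio of at least 0.6, which is the case for many promoters. Of the coding-exon peaks, 24 (17.5%, 11.6 to 24.9) without gradient and 51 (12.2%, 9.24 to 15.8) in the 50 µL list qualified, against 4.70% of coding midpoints. Among other peaks over 3 kb from a TSS, 3.10% and 1.53% did. Zfp771, a zinc finger gene whose window is printed above, had 37 CpG pairs in 200 bases, 74.5% GC and a CpG ratio of 1.33. It had 6.74-fold enrichment without gradient and 3.14-fold in the 50 µL list, with coding summits before and after the move, and its 727-bp peak was the widest of its list. Slc9a3, an exchanger of sodium and protons, had a CpG-rich peak in its last coding exon, with 5.19-fold and 6.31-fold enrichment. Synaptopodin (Synpo), the signalling receptor Notch3 and the kinase subunit gene Pik3cd were also CpG-rich in both lists. An annotated RefSeq promoter window, 250 bases before to 50 after a gene start, was touched by 0 of the 137 peaks without gradient, which allows a share of up to 2.66%, and by 2 of the 417 in the 50 µL list (0.480%). Few could touch one, because the class lies over 3 kb from every GENCODE TSS. At that distance 0.542% and 0.293% of intronic peaks and 1.39% and 0.92% of intergenic peaks did.

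CTCF matches were more frequent in coding-exon peaks than in coding sequence as such. They were present in the summit windows of 17 of 137 peaks (12.4%, 7.40 to 19.1) without gradient and 11 of 417 (2.64%, 1.32 to 4.67) in the 50 µL list, against 0.143% of coding midpoint windows. Other peaks over 3 kb from a TSS had 12% (11.4 to 12.6) and 3.05% (2.90 to 3.20), within the intervals of the coding-exon peaks. In moved windows the shares were 14.4% (8.76 to 21.8) without gradient, against 13.8% in the others, and 5.48% (3.50 to 8.10) in the 50 µL list, against 4.40%. As the move was set from CTCF matches, it brings matches into the window, so higher shares after it follow from the move.

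A search of whole peaks found 16 coding-exon peaks with a match without gradient and 22 in the 50 µL list, and 7 matches were in both. The match itself was coding in 7 of the 16 and 7 of the 22, and intronic in the others. Where it was coding, 5 of 7 peaks without gradient and all 7 in the 50 µL list stayed in the class when moved. Where it was intronic, 0 of 9 and 1 of 15 did. The move was the median distance from summits to CTCF matches, so it places a summit near its match. This split therefore follows largely from the move itself. Lrp1, an endocytic receptor of the LDL receptor family, had a coding match and stayed coding in both lists, with 4.79-fold and 4.85-fold enrichment. Synpo2l did so too, in a coding exon of 2162 bp, with 6.48-fold and 5.35-fold. Eri1, an exoribonuclease that trims histone mRNA, had 6.74-fold and 4.70-fold enrichment, and only its 50 µL summit stayed coding. Tbx21, the T-bet factor of T helper and natural killer cells, had 7.18-fold and 5.19-fold enrichment and an intronic match. Ern1, a sensor of unfolded protein, had 7.20-fold and 2.66-fold enrichment and an intronic match.

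The other 8 motifs were searched as plain letters on both strands of the summit windows. GGGCGG, of the SP/KLF factors, was in 15 windows (10.9%, 6.26 to 17.4) without gradient and 42 (10.1%, 7.36 to 13.4) in the 50 µL list, against 4.05% of coding midpoints. Among other peaks over 3 kb from a TSS it was in 6.24% and 4.81%. CAGCTG, an E-box, was in 20.4% (14 to 28.2) and 19.2% (15.5 to 23.3), against 12.6% and 8.64% of the others and 14.4% of midpoints, but in moved windows of the 50 µL list its share was 13.6%. GAGGAAGT, of PU.1, was in 2.19% (0.454 to 6.27) and 4.08% (2.39 to 6.45) of coding-exon windows, against 6.81% and 4.09% of the others and 1.39% of midpoints. TGTGGTT, of RUNX, was in 4.38% (1.62 to 9.29) and 3.60% (2.03 to 5.86), against 8.37% and 6.92% of the others and 3.57% of midpoints. The share in other peaks was above the interval for PU.1 without gradient and for RUNX in the 50 µL list. In moved coding-exon windows these motifs were at 4.80% (1.78 to 10.2) and 5.71% (3.70 to 8.38). Moved shares of other peaks are not given here for any of these motifs, so the moved windows have no like comparison. TGANTCA, of AP-1, was in 2.92% (0.801 to 7.31) and 4.08% (2.39 to 6.45), against 6.84% and 5.94% of the others and 4.83% of midpoints. CCGGAAGT, of ETS factors, was in 2 windows without gradient (1.46%, 0.177 to 5.17), against 0.591% of the others, and in 4 in the 50 µL list (0.959%, 0.262 to 2.44), against 0.344%. ATGCAAAT, the octamer, was in 1 window (0.730%) and 3 (0.719%), against 2.24% and 1.64%. AGATAAG, of GATA factors, was in 2 (1.46%) and 7 (1.68%), against 2.2% and 2.66%. For AP-1, ETS, octamer and GATA the share in other peaks was inside the interval in both lists. A match describes these letters only and does not show binding.

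Overlap between the lists followed significance. Without gradient, 123 of 137 coding-exon peaks (89.8%, 83.5 to 94.3) overlapped a 50 µL peak by at least 1 bp, beside 93.1% of all peaks over 3 kb from a TSS in that list. Of the 417 in the 50 µL list, 101 (24.2%, 20.2 to 28.6) overlapped a peak of the smaller list, beside 19.5% of all peaks over 3 kb. Within quartiles of −log10 q, taken over all peaks over 3 kb from a TSS, coding-exon peaks of the 50 µL list overlapped in 3.85%, 8.60%, 18.4% and 58.2%, from the lowest quartile to the highest. Other peaks overlapped in 2.60%, 5.88%, 17.3% and 52.1%, each within the interval for coding-exon peaks. Without gradient the shares were 82.5%, 86.1%, 92.6% and 100%, against 88.0%, 91.2%, 95.0% and 98.4%, also within the intervals. Once significance was matched, coding-exon peaks were thus not distinguishable at these numbers from other peaks in their overlap.

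**Figure D5:**
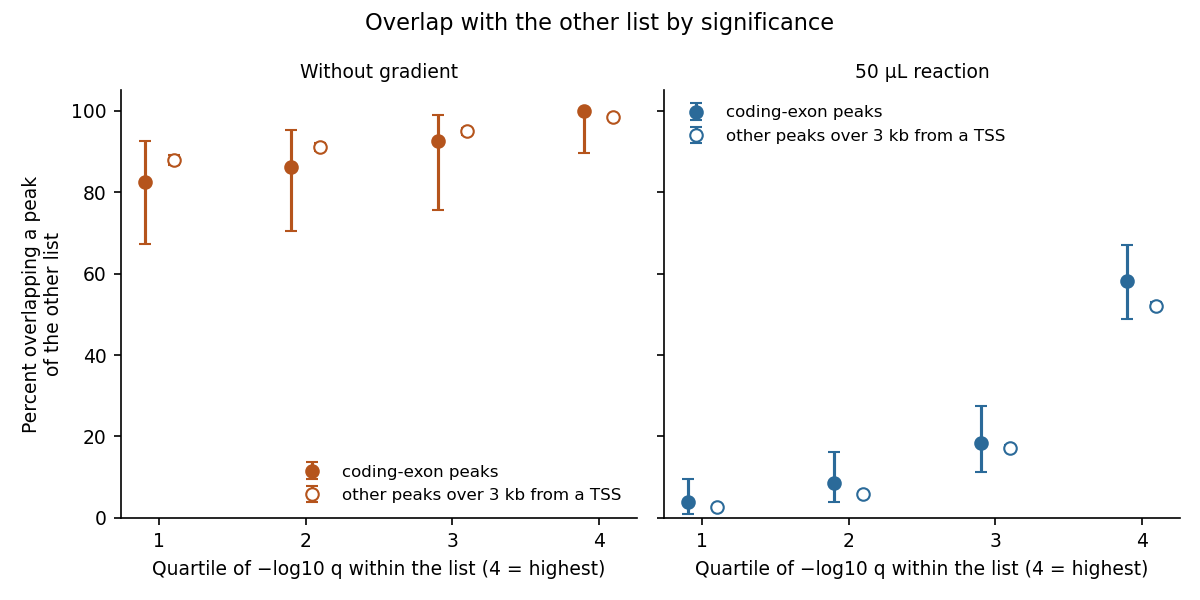
Percent of peaks that overlap a peak of the other list (y axis) by quartile of −log10 q within the list (x axis), for coding-exon peaks (filled) and other peaks over 3 kb from a TSS (open), with exact 95% intervals, without gradient (left) and in the 50 µL list (right). Coding-exon peaks of the highest quartile overlapped in 100% and 58.2% of cases, those of the lowest in 82.5% and 3.85%.

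The same region was called coding in both lists 78 times, always in the same gene, and 44 of these stayed in the class in both when moved. Another 37 peaks without gradient and 21 in the 50 µL list overlapped a peak whose summit was intronic. Overlapping peaks had summits a median of 47 bp apart for coding-exon peaks without gradient and 33 bp for those of the 50 µL list. Over the 78 pairs, fold enrichments had a Pearson's r of 0.409 and a Spearman's rho of 0.399, given as a description across regions, which are not independent replicates. Coding-exon peaks of the 50 µL list that overlapped the other list had a median −log10 q of 27.6, against 9.98 for those that did not, and a median width of 486 bp, against 291 bp. At the gene level, 135 genes had a coding-exon peak without gradient and 397 in the 50 µL list. The 81 genes in both were 60% of the 135 without gradient and 20.4% of the 397 in the 50 µL list. A matching gene share for other peaks over 3 kb from a TSS is not given here. These gene counts thus do not show whether coding-exon peaks differ from others.

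Few genes had more than 1 coding-exon peak, 2 without gradient (Adgrv1 and Mboat4) and 19 in the 50 µL list. Kmt2e, of the KMT2 family of chromatin proteins, was the only one with 3. Its peaks were weak, with 1.90-fold to 2.79-fold enrichment, and 2 of them stayed coding when moved. Rai1 had a second peak in the same exon (3.83-fold), which did not stay in the class when moved. Apc2, a relative of the tumour suppressor APC, had 6.88-fold and 6.13-fold peaks in the 50 µL list, in coding exons 15 and 7 of 15. Mmd and Fam114a1 each had a stronger and a weaker peak, 6.0-fold and 2.45-fold in Mmd and 5.64-fold and 2.31-fold in Fam114a1.

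Gene lists showed which kinds of gene carried these peaks. Of 14277 autosomal genes with coding sequence over 3 kb from a TSS, 0.946% had a coding-exon peak without gradient and 2.78% in the 50 µL list. Chromatin regulators had 1 of 40 (2.50%, 0.0633 to 13.2) and 5 of 40 (12.5%, 4.19 to 26.8). The 5 were Kmt2a, Kmt2c, Kmt2d, Kmt2e and the acetyltransferase Ep300, with 2.65-fold to 3.49-fold enrichment at their most significant peak, and each kept a peak in the class when moved. These genes are long, and no correction for coding length was made. C2H2 zinc finger genes had 4 of 392 and 7 of 392, and 3 and 6 of them kept one when moved. Besides Zfp771, Zfp51 had a peak in both lists, with 3.72-fold enrichment without gradient and 4.00-fold in the 50 µL list, inside a coding exon of 2096 bp. Zfp503 had 3.79-fold enrichment in the 50 µL list at 71.0% GC.

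Genes that mark spleen cells were at shares whose intervals include those of all genes. B cell genes had 0 of 24 in both lists, which allows up to 14.2%. T cell genes had 0 of 26 and 1 of 26 (3.85%, 0.0973 to 19.6). The single gene was Prkcq, a kinase of T cell receptor signalling, with 3.97-fold enrichment in the 50 µL list. Myeloid genes had 0 of 16 and 2 of 16 (12.5%, 1.55 to 38.3), among them the integrin gene Itgam with 3.33-fold enrichment in the 50 µL list. Neither the Prkcq nor the Itgam peak stayed coding when moved. Kinesin genes had 2 of 36 and 3 of 36. Myosin genes had 1 of 38 (2.63%, 0.0666 to 13.8) and 4 of 38 (10.5%, 2.94 to 24.8). The second interval lies above the 2.78% of all genes, and only 1 of the 4 kept a peak when moved. No correction for coding length was made here either. Myh9, a nonmuscle myosin of blood cells, was in both lists (5.25-fold and 4.52-fold), and its moved summit was not coding. Solute carrier genes had 3 of 304 and 7 of 304. Collagens had 1 of 43 in each list. Axonemal dynein, potassium channel and ADAM protease genes had 0 without gradient and 1 each in the 50 µL list. Olfactory receptor and protocadherin genes, of which 73 and 45 had coding sequence at that distance, had 0 in both lists.

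The promoters of the genes with a coding-exon peak were open more often than others in the 50 µL list. The genes compared were not matched for coding length or number of TSSs. A peak within 1 kb of a TSS was present for 328 of 397 such genes (82.6%, 78.5 to 86.2), against 62.8% (62.0 to 63.6) of the 13880 genes with coding sequence over 3 kb from a TSS and no coding-exon peak. Without gradient it was present for 72 of 135 (53.3%, 44.6 to 62.0), against 49.7% (48.9 to 50.5) of 14142, which was within the interval. As a check of tissue, promoter peaks were found at 2 of 5 B cell, 3 of 5 T cell and 1 of 5 red pulp macrophage markers without gradient. The 50 µL list had them at 5, 5 and 4 of 5. Alb, Ins2, Myh6, Neurod1 and Krt5, which mark liver, pancreas, heart, neurons and epidermis, had 0 of 5 in both lists.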

How the data were processed

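The data were 2 peak lists from mouse spleen FFPE tissue, 1 per library, read as deposited. The authors mapped reads to mm10 (BWA mem v0.7.17, samtools v1.17) and dropped duplicates with their own script. They then ran MACS2 v2.1.2 on each library without a shifting model, at a q-value of 0.01, and took out blacklisted regions by bedtools v2.30.0. BWA, SAMtools, mm10 and hg38 are listed in the submitters' processing notes. The deposited lists give an integer display score, which was not used, the fold enrichment as a ratio over local background, and −log10 p and −log10 q values as MACS2 gave them. Other deposited columns hold the positions and the summit offset. Read depth is unknown, and the precision given is that of counts of peaks. Whether reads from rejected barcodes entered the peak calls is not given in the sources used here.

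Autosomal peaks were classified against GENCODE vM21, and windows of 200 bp around summits were read from RefSeq GRCm38, in Python 3.11.15 with numpy 2.4.6, pandas 2.3.3 and scipy 1.17.1. Peaks over 3 kb from a TSS were assigned by summit in the order coding, UTR, other exon, intron, intergenic. Base shares used the known bases at that distance. Overlap meant at least 1 shared bp. The functions were tested on simulated data. The coding-exon peaks, the 14 gene lists and the rule for naming peaks were chosen with earlier results of these data known. The rule took the 10 most significant peaks per list, the 5 genes with most peaks, up to 6 genes of each list, the widest peak, the longest exon, the 3 peaks on each side of the 3 kb limit and the 5 shared peaks with the highest product of fold enrichments. Genes named for CTCF or CpG content, and Mboat4 and Adgrv1, were chosen after their values were seen. Alternatives changed the q and fold limits, list length, TSS set, distance rule, transcript set, coding rule, overlap rule and window. Values of 1 gene of the myeloid list are not reported here. The move of peaks by the median CTCF offset was chosen after seeing the data.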

Additional observations from a re-analysis of the deposited data

How the results depend on the processing

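The coding-exon share of autosomal peaks, 0.551% without gradient and 0.477% in the 50 µL list, followed the definition of the class. With TSSs of protein-coding transcripts only it was 0.841% and 0.770%, with a cut of 1 kb 0.857% and 0.707%, with any base of the peak coding 1.35% and 1.73%, and with 50% or more of the peak coding 0.366% and 0.274%. In the 50 µL list it was 0.529% at 4-fold enrichment or more and 0.426% at equal list length, where the ratio to the base share was 1.14 and 1.07, above 1, against 0.899. With TSSs of protein-coding transcripts only, the 50 µL ratio of 0.967 had an interval that includes 1 (0.896 to 1.043). In value, the other 11 of 13 alternative ratios and 9 of 19 alternative shares stayed within the main interval. The overlapping share, 89.8% and 24.2%, was 57.7% and 15.6% at a reciprocal overlap of 50%, 59.0% and 45.2% at 4-fold enrichment or more in both lists, and 53.3% and 59.4% at equal list length. It was 71.5% without gradient when summits had to lie within 100 bp. Median GC content stayed within the members' quartiles in 6 of 6 alternatives, and motif shares within the main interval in 22 of 36. No paired analysis was possible because each condition has 1 library. Read depth, which the lists do not give, limits any comparison of enrichment between them.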

Other observations

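Coding-exon peaks were spread over all 19 autosomes. Without gradient the rate ran between 2.69 peaks per Mb of coding sequence on chromosome 5 (3 peaks) and 14.4 on chromosome 13 (10 peaks). The 50 µL rate ran between 11.9 on chromosome 3 (10 peaks) and 35.2 on chromosome 11 (45 peaks). A transcript on the opposite strand crossed the summit in 6 of 137 peaks without gradient and 14 of 417 in the 50 µL list.

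The limit of 3 kb left out more coding summits than it kept. Within 3 kb of a TSS, 643 summits without gradient and 1152 in the 50 µL list were coding, with a median GC content of 64.5% and 60.5%. Just inside the class without gradient were Zscan10 (3056 bp, 9.19-fold), Trp53i13 (3057 bp, 4.73-fold) and Synpo2l (3217 bp, 6.48-fold), and just outside were Slc37a3 (2949 bp, 4.99-fold), Tnfrsf10b (2947 bp, 4.51-fold) and Sostdc1 (2928 bp, 4.62-fold). For the 50 µL list, Dbf4 (3025 bp, 3.53-fold), Fbxo34 (3070 bp, 4.57-fold) and Gne (3079 bp, 2.58-fold) were just inside, and Pxk (2999 bp, 2.66-fold), Nrd1 (2978 bp, 3.11-fold) and Agr2 (2974 bp, 4.34-fold) just outside.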
